A study of Mus musculus with 18 samples.

Results

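The genes described here are those of mouse chromosomes 1 and 18, ordered by position, in 2 mouse lung cancer cell lines with altered expression of the kinase gene Dstyk. The deposited tables list 36047 genes, of which 1962 lie on chromosome 1 and 863 on chromosome 18 of the GRCm38 assembly. A gene entered a comparison when its estimated counts, summed over transcripts, reached 10 in at least 3 of the 6 libraries compared. By this rule 1368 of the 2825 genes of both chromosomes entered at least 1 comparison, 938 on chromosome 1 and 430 on chromosome 18, against 15710 genes on all chromosomes. Both chromosomes were chosen by the log2 ratios of these same comparisons, so those values describe the libraries and are given without a test of the chromosomes.

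LLC (Lewis lung carcinoma, labelled lung adenocarcinoma, from C57BL/6 mice) and UN-SCC679 (labelled lung squamous carcinoma, from A/J mice) are established tumour lines that can be grown in mice of their own strain. In each line, the TPLKO vector was used either with sh3, directed at Dstyk, or empty, and both groups were given doxycycline. UN-SCC679 cells overexpressing wild-type DSTYK (OE_DSTYKwt) were set against cells with the empty pLENTI6 vector, with no treatment labelled for either. Each of the 6 groups had 3 libraries. The 2 empty-vector groups of UN-SCC679 were also set side by side (pLENTI6 against TPLKO). They carry no DSTYK construct, and vector, doxycycline and anything else that separates the 2 experiments cannot be told apart in them. There was 1 knockdown construct, and whether a group of cells was a clone or a mixed population is not given in the sources used here.

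Neighbouring genes on a chromosome are mostly unrelated in function and are read from separate promoters, so genes of a whole chromosome are not expected to share one level of change. Shifts that run along a chromosome or an arm are a known feature of tumour cell lines, in which gained or lost chromosome copies change the RNA of many genes by small steps, while local runs of related genes (receptor, interferon-inducible and cadherin clusters) can also respond as groups. The files hold RNA only, and DNA copy number was not measured in them. DSTYK, the dual serine/threonine and tyrosine protein kinase altered in these lines, is itself encoded on chromosome 1.

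The promoters of 4 genes of chromosome 1 are shown because the results return to them: Dstyk, the altered gene; Ptgs2, which rose in LLC with sh3; Dhx9, which fell in LLC from a close position; and Pappa2, which rose with OE_DSTYKwt. Each is the 250 bases before the transcription start, 5′ to 3′ on the gene's strand, from RefSeq on GRCm38.p6, with CG dinucleotides in capitals. The positions are chr1:132417203-132417452 (plus strand) for Dstyk, chr1:150099781-150100030 (plus) for Ptgs2, chr1:153487661-153487910 (minus) for Dhx9 and chr1:158958176-158958425 (minus) for Pappa2.
Dstyk: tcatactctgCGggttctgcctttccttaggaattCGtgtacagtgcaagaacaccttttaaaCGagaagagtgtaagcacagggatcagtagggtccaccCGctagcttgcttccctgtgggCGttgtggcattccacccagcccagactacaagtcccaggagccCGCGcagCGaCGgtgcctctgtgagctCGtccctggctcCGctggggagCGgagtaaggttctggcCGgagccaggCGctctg
Ptgs2: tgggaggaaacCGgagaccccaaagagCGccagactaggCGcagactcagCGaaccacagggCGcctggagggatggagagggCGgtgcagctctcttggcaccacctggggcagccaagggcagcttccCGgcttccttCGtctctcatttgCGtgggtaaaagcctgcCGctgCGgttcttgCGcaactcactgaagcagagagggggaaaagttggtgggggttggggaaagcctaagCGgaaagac
Dhx9: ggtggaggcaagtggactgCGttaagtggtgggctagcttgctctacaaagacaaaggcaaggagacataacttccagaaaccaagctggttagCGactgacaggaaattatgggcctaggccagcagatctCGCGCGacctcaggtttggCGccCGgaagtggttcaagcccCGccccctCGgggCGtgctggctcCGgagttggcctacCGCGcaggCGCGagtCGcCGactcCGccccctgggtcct
Pappa2: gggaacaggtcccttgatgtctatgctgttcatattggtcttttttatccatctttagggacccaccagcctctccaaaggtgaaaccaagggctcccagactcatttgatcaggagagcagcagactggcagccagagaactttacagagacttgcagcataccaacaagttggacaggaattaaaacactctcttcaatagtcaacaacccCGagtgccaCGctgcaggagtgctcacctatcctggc
Dstyk has 14 CG dinucleotides, Ptgs2 13 and Dhx9 18, and 40.3%, 43.4% and 29.2% of the 16922 promoters of the same length have as many or more. Pappa2 has 2, a number reached by 84.2% of promoters. Neither TATAAA (12% of all promoters on either strand) nor CACGTG (6.66%) occurs in any of these 4 windows. Of the 76 genes of chromosome 1 taken by the naming rule, 52 matched a RefSeq promoter by symbol, strand and chromosome.

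Libraries held between 40525385 and 46528071 estimated counts. Levels are given as CPM, counts scaled to a common library size. On chromosome 1, 14 genes stood exactly at the minimum in the LLC comparison, with a count of 10 in the library that decided, and had mean levels of 0.17 to 0.27 CPM; 13 genes with a count of 9 there were left out, at 0.13 to 0.25 CPM. The first pLENTI6 library stood apart from the other libraries of its group, with a mean chi-square per gene of 12.2 and 13.8 against them, where no other pair of libraries of a group exceeded 5.04. Defining markers partly went against the label of UN-SCC679: Krt5, Epcam and Cdh1 had at most 0.14 CPM in its empty-vector libraries, while Col1a2 had at least 4057 CPM, Krt8 at least 416 CPM and Sox2 at least 31.8 CPM. The squamous genes Trp63 and Krt14 had 1.91 to 3.10 CPM and 0.46 to 3.25 CPM there. Krt6a had 0.38 to 0.54 CPM with empty TPLKO and 61.1 to 62.0 CPM with empty pLENTI6. Of further fibroblast genes, Col1a1 had 503 to 518 CPM with empty TPLKO and 7.03 to 7.69 CPM with empty pLENTI6. Pdgfra had 6.42 to 19.4 CPM in these groups, and Dcn and Lum at most 0.24 CPM. In the empty LLC libraries Epcam, Cdh1 and Krt8 had at most 0.76 CPM, but Krt18 had 32.2 to 36.3 CPM. The leukocyte genes Ptprc and Cd3e and the endothelial genes Kdr and Cdh5 had at most 0.13 CPM in the empty-vector libraries of both lines.

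With OE_DSTYKwt, genes of chromosome 1 lay slightly above and genes of chromosome 18 slightly below those of all other chromosomes. For each gene the log2 ratio of its mean CPM in the altered group to that in the empty group was taken. The median over the 815 genes of chromosome 1 was 0.097 above the median of all other chromosomes, a 1.07-fold difference. Library by library, the medians of chromosome 1 less those of the other chromosomes were 0.10, 0.10 and 0.091 in the OE_DSTYKwt libraries and -0.0093, 0.0062 and 0.0053 in the empty pLENTI6 libraries. Those of the 377 genes of chromosome 18 were -0.081, -0.100 and -0.10 with OE_DSTYKwt and -0.012, 0.0042 and 0.0073 with empty pLENTI6. On both chromosomes the 2 groups of libraries did not overlap, in opposite directions. Nor did they on other chromosomes, among them 3, 4, 5 and 8, so this alone does not set chromosomes 1 and 18 apart. For single genes, groups of libraries do not overlap in 46% of all genes tested in this comparison, 75.6% in LLC with sh3, 67.9% in UN-SCC679 with sh3 and 72.9% between the empty groups. Without the first pLENTI6 library the values were 0.093 for chromosome 1 and -0.10 for chromosome 18, close to the 0.097 and -0.100 of all libraries. The share of all counts that fell on genes of chromosome 1 was 5.37% to 5.59% in the empty libraries and 5.86% to 5.93% with OE_DSTYKwt, and that of chromosome 18 was 2.06% to 2.07% and 1.89% to 1.90%.

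The displacement with OE_DSTYKwt was shared by most genes of chromosome 1 and was not carried by a few strongly changed ones. Of its 815 genes, 623 had a ratio above 1, and the interquartile range of their log2 ratios was 0.19, from 0.0089 to 0.20. On chromosome 18, 102 of 377 genes had a ratio above 1. A gene was called changed at an adjusted p under 0.05 in edgeR's quasi-likelihood test with Benjamini-Hochberg adjustment over all genes. Of all genes tested 29.7% were called, 14.8% higher and 14.9% lower. On chromosome 1, 267 were called higher and 49 lower; on chromosome 18, 21 higher and 132 lower. These counts come from the values that chose the chromosomes, so nothing is read from them against the background. They also depend on single libraries: leaving out the first, the second and the third OE_DSTYKwt library left 169, 169 and 176 genes of chromosome 1 called higher, and leaving out the first pLENTI6 library gave 310. Of the 267, 239 had a log2 fold change under 0.5. By level of expression, the median of chromosome 1 less that of the other chromosomes at the same level was 0.045 for genes under 1 CPM, 0.033 for 1 to 10 CPM, 0.11 for 10 to 100 CPM and 0.10 above that. On chromosome 18 these values were -0.16, -0.11, -0.10 and -0.093. Genes that are not protein-coding differed on chromosome 1, where the median of the 80 lay below that of the other chromosomes, at -0.025; the median of the 39 of chromosome 18 was at -0.054.

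In LLC with sh3, chromosome 1 again lay above and chromosome 18 below the other chromosomes, by more. The median of the 816 genes of chromosome 1 was 0.13 above that of the other chromosomes (1.10-fold), and that of the 361 genes of chromosome 18 was -0.18 against them (1.13-fold lower). The sh3 libraries had 0.15, 0.13 and 0.14 for chromosome 1 and the empty libraries -0.0036 to 0.0049. For chromosome 18 the sh3 libraries had -0.19, -0.18 and -0.22 and the empty libraries -0.0100 to 0.0081. The groups did not overlap on either chromosome, nor on others such as 6 and 11. The share of counts on chromosome 1 was 6.11% to 6.14% in the empty libraries and 6.66% to 6.67% with sh3, and that on chromosome 18 was 2.29% to 2.31% and 2.03% to 2.04%. Among 20 chromosomes (the autosomes and X), chromosome 1 had the highest and chromosome 18 the lowest median both here and with OE_DSTYKwt. In LLC the next values were 0.093 for chromosome 6 and -0.11 for chromosome 11, and with OE_DSTYKwt 0.074 for chromosome 8 and -0.063 for chromosome 4.

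The spread of single genes in LLC was wide beside this displacement, unlike that with OE_DSTYKwt. The interquartile range of chromosome 1 was 0.71, as it was on chromosome 18 and over all other chromosomes (0.71 each). On chromosome 1, 496 of 816 genes had a ratio above 1, against 126 of 361 on chromosome 18. Of all genes tested in LLC 72.1% were called, 35.9% higher and 36.3% lower. On chromosome 1, 370 were called higher and 213 lower, and on chromosome 18, 84 higher and 178 lower; these counts too are part of what chose the chromosomes. Among the called genes of chromosome 1 the median log2 fold change was 0.51 for those higher and -0.37 for those lower, and 94 rose and 28 fell at least 2-fold. By level, chromosome 1 less the other chromosomes was -0.0046 under 1 CPM, 0.20 for 1 to 10 CPM, 0.13 for 10 to 100 CPM and 0.16 above that, so its genes of the lowest level were not above those of other chromosomes. Chromosome 18 was at -0.27, -0.45, -0.17 and -0.095. Genes that are not protein-coding lay below such genes of the other chromosomes on both, as with OE_DSTYKwt. Their medians were at -0.058 for the 64 of chromosome 1 and -0.20 for the 33 of chromosome 18.

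**Figure D1:**
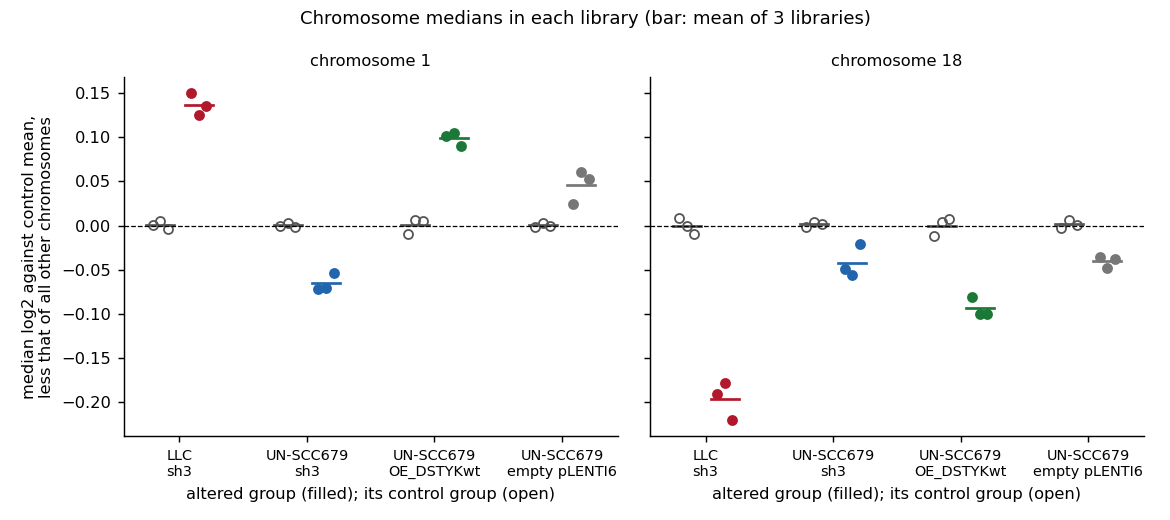
Median log2 level of the genes of chromosome 1 (left) and chromosome 18 (right) in each library against the mean of its control group, less the same median over all other chromosomes; open points are control libraries, filled points are libraries of the altered group (or of empty pLENTI6 set against empty TPLKO), bars are means of 3 libraries. In LLC with sh3 and in UN-SCC679 with OE_DSTYKwt all libraries lie above the controls for chromosome 1 and below them for chromosome 18, while UN-SCC679 with sh3 lies below on both.

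With sh3 in UN-SCC679 neither chromosome stood at an end of the order. The 842 genes of chromosome 1 had a median of -0.061 against the other chromosomes and the 380 genes of chromosome 18 one of -0.042, the 17th and 14th highest of 20. The extremes were other chromosomes, 0.27 for chromosome 19 and -0.21 for chromosome 8. The sh3 libraries had -0.072, -0.070 and -0.054 for chromosome 1, below the -0.0012 to 0.0028 of the empty libraries. For chromosome 18 they had -0.049, -0.056 and -0.021, also below the -0.0015 to 0.0043 of the empty libraries. Without the third empty library the median of chromosome 18 was -0.026. Summed counts followed the median on chromosome 18 but not on chromosome 1. The share of counts on chromosome 1 was 5.12% to 5.18% in the empty libraries and 5.17% to 5.23% with sh3, and these ranges overlap. That of chromosome 18 was 1.99% in each empty library and 1.96% to 1.97% with sh3. Of all genes tested 63.5% were called, 31.6% higher and 31.9% lower, with 221 genes of chromosome 1 higher and 313 lower and 98 of chromosome 18 higher and 132 lower. The balance of calls depended on the scaling, over all genes as well as on these chromosomes. Scaled by library size alone, 266 genes of chromosome 1 were higher and 264 lower, and 120 of chromosome 18 higher and 112 lower. The median log2 fold changes were then 0.014 and 0.032, in place of -0.046 and -0.028, and that of all genes moved from 0.010 to 0.071. Of called genes of all chromosomes 58.7% were then higher, against 50.2% on chromosome 1 and 51.7% on chromosome 18. Without this change of scaling the shares were 49.8%, 41.4% and 42.6%, so both chromosomes stayed below all genes.

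The 2 empty-vector groups of UN-SCC679 also differed along these chromosomes. Empty pLENTI6 lay 0.047 above empty TPLKO on chromosome 1 and at -0.038 on chromosome 18, the 4th and 12th highest of 20. The pLENTI6 libraries had 0.025, 0.061 and 0.053 for chromosome 1 and -0.035, -0.048 and -0.038 for chromosome 18. None overlapped with TPLKO, which was also so on other chromosomes, among them 8, 17 and 19, at -0.16, 0.33 and 0.38. Chromosome 19 was the highest and chromosome 8 the lowest of 20, as in UN-SCC679 with sh3, which shares the TPLKO libraries. The first pLENTI6 library was the lowest on chromosome 1. Without it the values of chromosomes 1 and 18 were 0.058 and -0.068, and without the third the latter was -0.066. Of all genes tested 68.3% were called (35.2% higher, 33.1% lower), with 321 of chromosome 1 higher and 240 lower. On chromosome 18, 126 were higher and 143 lower, or 139 and 133 when scaled by library size alone. Over all genes that scaling gave 5438 higher and 4331 lower. With no DSTYK construct in either group, displacements of 0.047 and -0.038, and larger ones elsewhere, separated cells of the same line in these libraries. The comparison shares its libraries with both other UN-SCC679 comparisons.

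**Figure D2:**
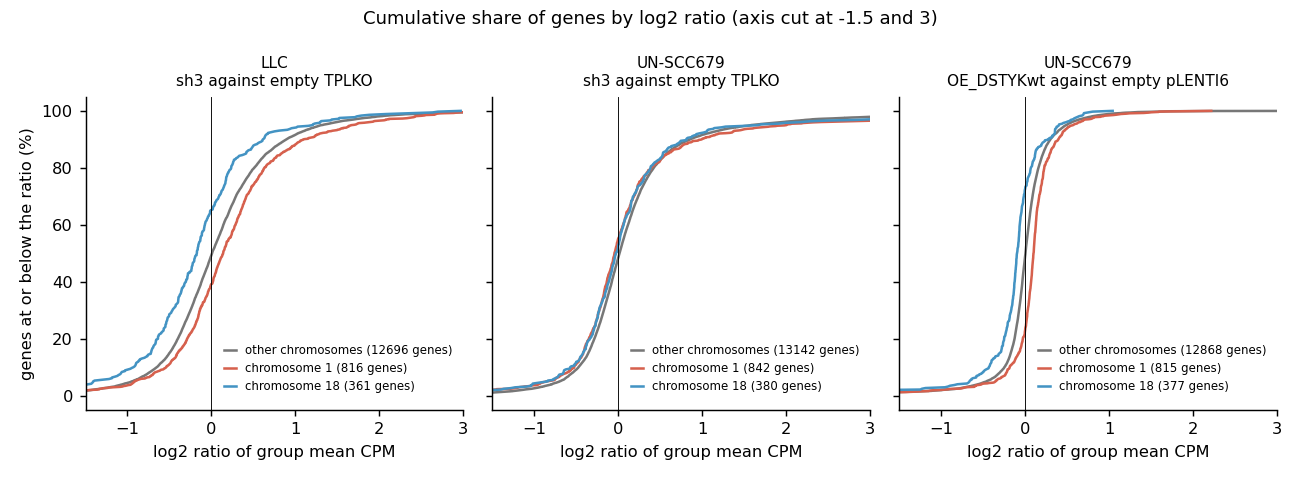
Cumulative share of genes (vertical axis, percent) at or below a given log2 ratio of group mean CPM (horizontal axis) for chromosome 1, chromosome 18 and all other chromosomes in the 3 comparisons of an altered group with its empty vector; the horizontal axis is cut. With OE_DSTYKwt the curves of chromosomes 1 and 18 are nearly parallel to that of the other chromosomes and displaced to either side. In LLC they are displaced too, and the curves of all chromosomes are much wider. In UN-SCC679 with sh3 they cross or run close together.

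Along chromosome 1 the displacement with OE_DSTYKwt was nearly even. Genes were placed by transcription start in windows of 10 Mb, each with 5 or more genes. All 20 windows lay above the other chromosomes, with medians from 0.043 (40 to 50 Mb, 31 genes) to 0.13 (140 to 150 Mb, 12 genes), and in all 20 each OE_DSTYKwt library lay above each empty library. The standard deviation between the windows was 0.024, against 0.080 over the 239 windows of other chromosomes and ranked 3 from the lowest of the 20 chromosomes. Of those 239 windows, 118 lay above the median of the other chromosomes. With no filter on low counts the window from 110 Mb (14 genes) had a median of -0.023, the 1 window that changed sign under an alternative. In windows of 5 Mb, that from 45 Mb (9 genes) had a median of -0.037, and all others lay above the other chromosomes.

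The medians of the same windows varied far more in LLC, but about as much as those of other chromosomes. Their standard deviation was 0.13, and that of the 239 windows of other chromosomes was also 0.13. Of 20 windows 17 lay above the other chromosomes, and in 14 of them each sh3 library lay above each empty library. The highest run was in the distal part: 0.31 at 140 to 150 Mb (9 genes), 0.34 at 150 to 160 Mb (51 genes) and 0.38 at 160 to 170 Mb (64 genes), the last 2nd highest of 268 windows in the genome. In the window from 160 Mb the sh3 libraries had medians of 0.39, 0.30 and 0.30 and the empty libraries -0.0072 to 0.0049, and 43 of its 64 genes had a ratio above 1. Other high windows were 190 to 200 Mb at 0.27 and 60 to 70 Mb at 0.24. The windows from 10, 90 and 120 Mb lay below, at -0.12, -0.042 and -0.032, and their sh3 and empty libraries overlapped. In LLC 9 windows of chromosome 1 changed sign under at least 1 alternative, among them that from 190 Mb, whose summed CPM gave -0.056; the windows between 130 and 190 Mb did not.

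Of the 20 windows of chromosome 1 in UN-SCC679 with sh3, 16 lay below the other chromosomes. One stood far above them, 140 to 150 Mb at 0.34, the highest of 267 windows in the genome; it holds 12 genes, fewer than 20, and its median was 0.21 without the third sh3 library and 0.23 with a filter at a mean of 1 CPM. Of its genes, 6 were called higher. Without this window the values ran from -0.22 (0 to 10 Mb, 18 genes) to 0.045. The 2 empty groups ranged from -0.21 (100 to 110 Mb, 13 genes) to 0.20 (160 to 170 Mb, 51 genes), with 15 of 20 windows above the other chromosomes. Of the 20 windows, 12 changed sign under at least 1 alternative in UN-SCC679 with sh3, and 9 between the empty groups.

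**Figure D3:**
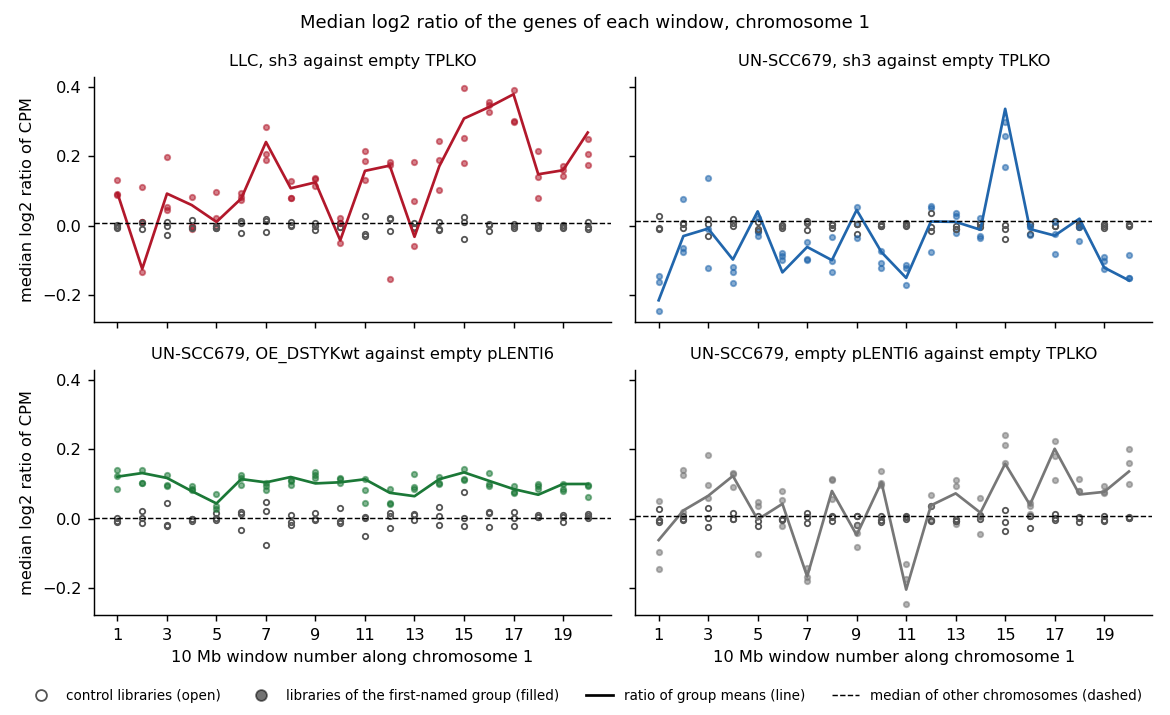
Median log2 ratio of the genes of each 10 Mb window (vertical axis) against the number of the window along chromosome 1 (horizontal axis; window 1 starts at the first base), in 4 comparisons; lines are ratios of group means, filled points the libraries of the first-named group, open points the control libraries, and the dashed line the median of all other chromosomes. With OE_DSTYKwt the line stays between 0.043 and 0.13, while in LLC it runs from -0.12 to 0.38.

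On chromosome 18 all 9 windows lay below the other chromosomes both in LLC with sh3 and with OE_DSTYKwt. In LLC the values ran from -0.083 (60 to 70 Mb, 60 genes) to -0.32 (70 to 80 Mb, 35 genes), and in all 9 each sh3 library lay below each empty library. In the window from 70 Mb only 6 of 35 genes had a ratio above 1, and the sh3 libraries had -0.36, -0.30 and -0.25. With OE_DSTYKwt the lowest windows were 40 to 50 Mb at -0.21 (30 genes, 4 with a ratio above 1) and 50 to 60 Mb at -0.18 (19 genes). The last window, from 80 Mb, was near the other chromosomes at -0.020; its libraries overlapped, and its sign changed without the second or the third OE_DSTYKwt library or the second pLENTI6 library. In UN-SCC679 with sh3 the windows ran from -0.23 (40 to 50 Mb, 30 genes) to 0.084 (30 to 40 Mb, 120 genes). Of these 9 windows 3 lay above the other chromosomes, and 6 changed sign under at least 1 alternative. Between the empty groups 6 of 9 did so, and in LLC 1. In the window from 40 Mb the libraries had -0.22, -0.20 and -0.19 with sh3 and -0.17, -0.23 and -0.21 with OE_DSTYKwt. It holds Lars, a leucyl-tRNA synthetase gene, and Eif1a, a translation initiation factor gene. Lars was called lower in LLC (log2 fold change -0.48 ± 0.014), in UN-SCC679 with sh3 (-0.47 ± 0.021) and with OE_DSTYKwt (-0.19 ± 0.024), and so was Eif1a (-0.39, -0.46 and -0.29). In windows of 5 Mb, that from 0 Mb lay above the other chromosomes in LLC, at 0.096 (8 genes). With OE_DSTYKwt that from 85 Mb did so, at 0.064 (5 genes). All other 5 Mb windows of chromosome 18 lay below in these 2 comparisons.

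**Figure D4:**
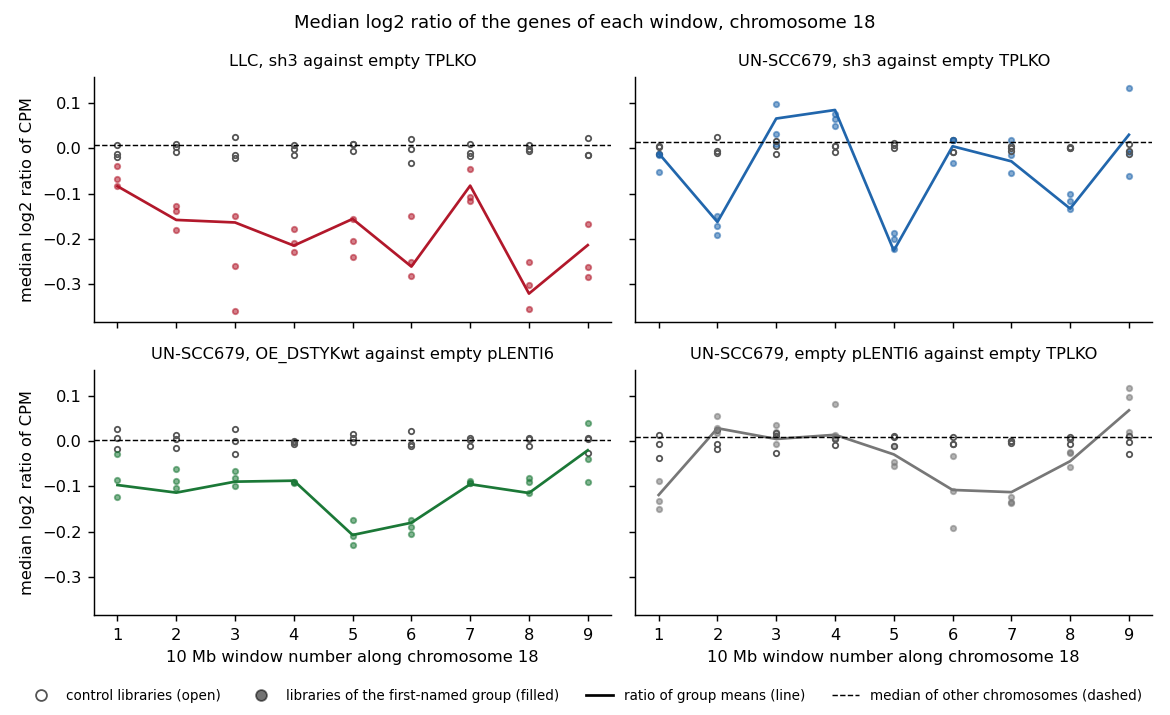
As in the plot of chromosome 1, for the 9 windows of chromosome 18. In LLC with sh3 and in UN-SCC679 with OE_DSTYKwt every window median lies below the dashed line, with the lowest values of -0.32 in window 8 and -0.21 in window 5.

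Dstyk lies at 132417555 to 132466958 of chromosome 1 and moved against its window in LLC. Its level was 22.7, 24.0 and 22.5 CPM in the sh3 libraries and 42.8, 40.7 and 44.8 CPM in the empty libraries, a log2 ratio of -0.89 in a window whose median was 0.17, and it ranked 3 from the lowest of 72 genes. In UN-SCC679 it was 26.6, 26.6 and 25.1 CPM with sh3 and 36.4, 36.3 and 38.0 CPM with empty TPLKO, a log2 ratio of -0.50 in a window at -0.012 (5 from the lowest of 81). With OE_DSTYKwt it was 37.3, 37.4 and 38.6 CPM against 29.4, 31.1 and 32.3 CPM. The groups did not overlap in any of these. The log2 ratio with OE_DSTYKwt was 0.29 in a window at 0.11, the 60th from the lowest of 72 genes, so 0.17 of it lay above the window. Between the empty groups Dstyk was at -0.26, in a window at 0.017. What part of the counts with OE_DSTYKwt came from the construct was not tested.

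Of 15 genes near Dstyk that were listed together, those called changed were 8 higher and 2 lower of 12 tested in LLC, 4 higher and 2 lower of 13 in UN-SCC679 with sh3, and 2 higher and 2 lower of 13 with OE_DSTYKwt. Of all genes tested 72.1%, 63.5% and 29.7% were called in these comparisons. Their median log2 ratios were 0.38, 0.075 and 0.088. Slc41a1, a magnesium transporter gene, was at 82.2, 78.5 and 81.1 CPM with sh3 in LLC and at 30.1, 30.5 and 32.0 CPM without, with no overlap (1.39 ± 0.034 SE on the log2 scale). In UN-SCC679 it was not called, with log2 fold changes of 0.076 with sh3 and 0.080 with OE_DSTYKwt. Rbbp5, which starts beyond the end of Dstyk and encodes a subunit of histone H3 lysine 4 methyltransferases, was called higher in LLC (0.31 ± 0.021). Nucks1, a DNA-binding protein gene of the same window, was called lower in LLC, at 370.3, 364 and 367 CPM against 565, 564 and 549 CPM.

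**Figure D5:**
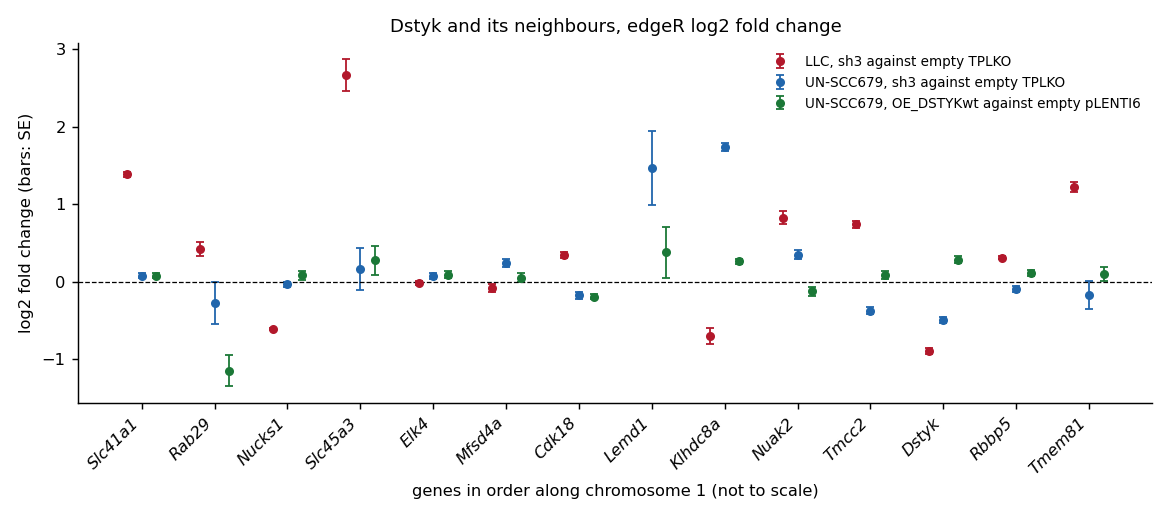
edgeR log2 fold change with its standard error (bars) for Dstyk and the tested genes listed as its neighbours, in their order along chromosome 1, in the 3 comparisons. Dstyk lies below 0 with sh3 in both lines and above 0 with OE_DSTYKwt; Slc41a1, Slc45a3 and Tmem81 lie highest in LLC, and Klhdc8a in UN-SCC679 with sh3.

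In LLC the distal part of chromosome 1 held both large rises and large falls. Ptgs2, the inducible cyclooxygenase of prostaglandin synthesis, was at 1551, 1563 and 1537 CPM with sh3 and 297, 290.2 and 287 CPM without (2.41 ± 0.015 SE on the log2 scale). Its neighbour Pla2g4a, the cytosolic phospholipase that releases arachidonic acid, the substrate of cyclooxygenases, rose from 209 ± 5.20 to 499 ± 1.52 CPM (mean ± SD, n = 3). Lamc1, the gamma chain of many laminins, rose from 356 ± 6.52 to 864 ± 11.2 CPM. In the same windows Dhx9, an RNA helicase gene, was at 170.1, 179.8 and 174 CPM with sh3 against 449, 442 and 434 CPM (-1.34 ± 0.021 SE), and Tpr, of the nuclear pore basket, fell from 531 ± 6.30 to 399 ± 2.26 CPM. None of these groups of libraries overlapped. With sh3 in UN-SCC679 Ptgs2 was not called (-0.010 ± 0.024), while Dhx9 (-0.14) and Lamc1 (-0.22) were called lower.

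Elsewhere on chromosome 1 in LLC, Slc40a1, the iron exporter ferroportin, was at 32.7, 33.0 and 34.1 CPM with sh3 and 7.66, 7.94 and 8.07 CPM without. Per2, a repressor of the circadian clock, was at 14.2, 13.6 and 13.7 CPM against 3.43, 3.53 and 3.94 CPM. Mr1, which presents microbial vitamin B metabolites to T cells, rose by 1.74 ± 0.064 SE on the log2 scale. Mgst3, a microsomal glutathione transferase gene, had the largest fall by the naming rule (5.15, 5.76 and 5.58 CPM against 18.3, 18.6 and 19.1 CPM), followed by Paqr8, Gpr39, Dhx9 and Bzw1. Bzw1, a regulator of translation initiation, was abundant, at 284, 283 and 287 CPM with sh3 and 583, 591 and 562 CPM without. The groups of these genes did not overlap. Per2 and Mr1 were called higher in all 3 comparisons, at 1.47 and 0.90 in UN-SCC679 with sh3 and 0.51 and 0.40 with OE_DSTYKwt.

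Among genes of chromosome 1 that met the naming rule, the largest rises in UN-SCC679 with sh3 started from low levels. Prelp, a small matrix proteoglycan, was at 39.6, 38.2 and 40.1 CPM against 0.94, 0.89 and 0.85 CPM (5.46 ± 0.071 SE on the log2 scale). Ugt1a6a and Ugt1a6b, near-identical glucuronosyltransferase genes whose reads may be split between them, were both called higher. The named falls included Klhl30, Tns1, Lamb3 and Erfe. Tns1, which links integrins to actin, was at 14.5, 14.4 and 14.1 CPM against 67.8, 66.9 and 70.6 CPM. Lamb3, the beta chain of an epithelial laminin, had a log2 fold change of -1.73 ± 0.079 SE, whereas in LLC it was called higher (1.38 ± 0.43, from 0.244 ± 0.124 to 0.634 ± 0.176 CPM).

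With OE_DSTYKwt the named rises of chromosome 1 included Pappa2, Sec16b, Plxna2 and Gorab. Pappa2, a protease that cleaves insulin-like growth factor binding proteins, was at 254, 263 and 258 CPM against 109.8, 128 and 128 CPM. Plxna2, a semaphorin receptor gene, was at 119.9, 121 and 132 CPM against 59.4, 68.9 and 71.7 CPM. The named falls were Slco5a1, Tnnt2, Cxcr2, Atp1b1 and F11r. Tnnt2, cardiac troponin T, was at 33.7, 32.4 and 34.4 CPM against 83.5, 74.6 and 76.0 CPM. Cxcr2, a chemokine receptor, was at 6.21 ± 0.559 CPM against 12.1 ± 0.974 CPM, and with empty TPLKO it had 0.772 ± 0.134 CPM. The groups of these genes did not overlap. Sec16b and Pappa2 also differed between the empty vectors, at -1.90 and -1.58 in empty pLENTI6 against empty TPLKO. Lypla1, a lysophospholipase gene in a high window, shows a small step, with 87.1 ± 0.105 CPM against 77.1 ± 1.33 CPM. Calls of this size were not stable: those of Rpl7, Tcea1, Atp6v1h, Rb1cc1, Arfgef1 and Lpgat1 were lost under at least 1 alternative.

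On chromosome 18 in LLC, Apcdd1, a Wnt inhibitor, had the largest fall by the naming rule, at 56.7, 53.6 and 54.5 CPM with sh3 and 219, 215 and 227 CPM without. Synpo, an actin-binding protein gene, was at 14.5, 13.6 and 14.8 CPM against 44.6, 43.4 and 44.3 CPM, and Slc26a2, a sulfate transporter gene, at 14.2, 13.1 and 14.3 CPM against 38.0, 36.6 and 36.0 CPM. Against this direction, Hbegf, a ligand of the epidermal growth factor receptor, was at 58.3, 57.5 and 58.9 CPM against 17.3, 15.9 and 17.6 CPM (1.78 ± 0.040 SE). Sil1, a nucleotide exchange factor of the chaperone BiP, rose by 0.93 and Ccbe1, a secreted factor of lymphatic growth, by 1.21 on the log2 scale. Abundant genes fell by small steps: Atp5a1, a subunit of mitochondrial ATP synthase, had a log2 fold change of -0.52, Etf1, a translation release factor, -0.44 and Hspa9, a mitochondrial chaperone, -0.17. Lmnb1, lamin B1 of the nuclear envelope, fell more, from 185 ± 1.83 to 85.7 ± 3.26 CPM. Groups did not overlap for these genes.

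On the same chromosome in UN-SCC679 with sh3, Egr1, an immediate-early transcription factor, was at 65.2, 64.6 and 65.6 CPM against 8.06, 6.29 and 7.12 CPM, although empty pLENTI6 cells of the same line had 160.4 ± 1.17 CPM in their own comparison. Lox, which cross-links collagen and elastin, was at 30.6 ± 1.69 CPM against 0.221 ± 0.132 CPM. The named falls included Pmaip1, the p53-induced cell death gene Noxa, at 25.4, 26.7 and 25.6 CPM against 103, 97.3 and 96.0 CPM. Hbegf was called lower here (-1.02 ± 0.073), opposite to LLC; that difference was not tested. With OE_DSTYKwt, Nfatc1, a calcium-responsive transcription factor, was at 28.5, 28.5 and 29.7 CPM against 17.7, 19.1 and 20.3 CPM. Among the named falls, Lipg, endothelial lipase, was at 6.73, 6.11 and 5.87 CPM against 10.2, 10.8 and 11.7 CPM, Ppic, a cyclophilin, at 101, 103 and 104 CPM against 156, 148 and 147 CPM, and Dcp2, the mRNA decapping enzyme, at 44.3, 45.7 and 43.6 CPM against 57.9, 66.6 and 64.5 CPM. The groups of these genes did not overlap. Lmnb1 (-0.36) and Slc12a2 (-0.40), a sodium, potassium and chloride cotransporter gene, were called lower as well, and both fell in LLC.

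Counts of genes called in local clusters are given beside the shares over all genes. These were 35.9% higher and 36.3% lower in LLC, 31.6% and 31.9% in UN-SCC679 with sh3, and 14.8% and 14.9% with OE_DSTYKwt. Between the empty groups they were 35.2% and 33.1%. Several of the clusters hold too few genes, or lie too near these shares, to be set apart from them. Of the 6 genes of the interleukin-1 receptor cluster on chromosome 1, 4 were tested in LLC and 3 were called lower. In UN-SCC679 with sh3 all 5 tested were called higher, and with OE_DSTYKwt 3 were higher and 1 lower of 5. Between the 2 empty-vector groups, with no DSTYK construct, all 5 were called higher as well. Their median log2 ratio was 2.06 there and 1.04 with sh3 in UN-SCC679. Il1rl1, the interleukin-33 receptor, was at 232, 226 and 227 CPM with sh3 in LLC against 448, 444 and 439 CPM. In UN-SCC679 it was at 60.9, 61.6 and 65.3 CPM with sh3 against 20.1, 21.3 and 20.1 CPM, and with OE_DSTYKwt at 399, 399.9 and 391 CPM against 219, 231 and 236 CPM. No groups overlapped for Il1rl1, and its difference between the lines was not tested. The interferon-inducible p200 cluster, of near-identical genes whose reads may be split, had 3 higher and 2 lower of 9 in LLC, 8 higher and 0 lower of 12 in UN-SCC679 with sh3 and 3 higher and 0 lower of 11 with OE_DSTYKwt. Among them, with sh3 in UN-SCC679, Ifi202b was at 94.7 ± 2.16 against 70.8 ± 0.393 CPM and Ifi203 at 39.5 ± 1.98 against 27.7 ± 1.62 CPM. Of complement regulators, 0 rose and 3 fell of 4 in LLC, with 1 and 1 of 4 in UN-SCC679 with sh3 and 2 and 0 of 3 with OE_DSTYKwt.

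Matrix genes of chromosome 1 were 5 higher and 1 lower of 8 in LLC, 5 and 6 of 11 in UN-SCC679 with sh3 and 1 and 2 of 8 with OE_DSTYKwt. Fn1, fibronectin, was called higher in each, most in UN-SCC679 with sh3 (1776, 1741 and 1706 CPM against 371, 385 and 395 CPM). Of 5 p53 and growth arrest genes, 3 were higher and 0 lower in LLC, 1 and 2 in UN-SCC679 with sh3 and 2 and 2 with OE_DSTYKwt. Atf3, a stress-induced transcription factor of this list, was called higher in LLC (54.6, 54.4 and 54.6 CPM against 23.7, 20.3 and 21.2 CPM) and lower in UN-SCC679 with sh3 (2.17 ± 0.0476 CPM against 5.92 ± 0.613 CPM). Its lower call with OE_DSTYKwt was lost with DESeq2, with the replicate number as a block, with no filter and without single libraries. That of Btg2 was lost without the first or the third OE_DSTYKwt library. On chromosome 18 lie the clustered protocadherins, which are adhesion molecules. Those of the Pcdha and Pcdhg groups share constant exons, so their reads cannot always be assigned to 1 gene. The clustered protocadherins had 1 higher and 6 lower of 21 in LLC and 16 and 0 of 31 in UN-SCC679 with sh3. With OE_DSTYKwt they had 9 and 2 of 29. Pcdhb7 was among those called higher with OE_DSTYKwt, against the direction of the chromosome, at 4.84 ± 0.254 CPM against 3.10 ± 0.344 CPM. The SMAD genes, which carry transforming growth factor beta signals or, for Smad7, inhibit them, had 1 higher and 1 lower of 3 in LLC, 0 and 3 in UN-SCC679 with sh3 and 0 and 2 with OE_DSTYKwt. Smad7 had a log2 fold change of -0.72 ± 0.061 SE in LLC. In UN-SCC679 its calls were lost with DESeq2 in both comparisons, with library-size scaling for sh3, and without single libraries in each. Those of Smad4 were lost with library-size scaling for sh3 and, with OE_DSTYKwt, without the second or the third OE_DSTYKwt or the second pLENTI6 library. The desmosomal cadherin cluster had 1 higher and 0 lower of 2 tested in UN-SCC679 with sh3. The gene called had no counts in the empty libraries. It could reach the count minimum only through the sh3 libraries, so a call could only be higher. The cluster had no tested gene in LLC, with OE_DSTYKwt or between the empty groups. Genes of the other lists were called between the empty groups too, given as higher and lower of tested. The p200 cluster had 7 and 2 of 12, complement regulators 1 and 1 of 3 and matrix genes 1 and 8 of 11. The p53 and growth arrest genes had 1 and 4 of 5, protocadherins 4 and 10 of 26 and SMAD genes 1 and 0 of 3.

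The chromosome medians of LLC with sh3 and UN-SCC679 with OE_DSTYKwt lay on the same sides, while the log2 ratios of single genes showed little relation. These 2 comparisons share no library. Over the 721 genes of chromosome 1 tested in both, Spearman's rho of the log2 ratios was -0.045, and over the 20 windows it was 0; both are descriptions across genes or windows, which are not independent replicates. On chromosome 18 it was -0.0066 over 323 genes. UN-SCC679 with sh3 and with OE_DSTYKwt, which share a cell line and no library, had a rho of 0.27 over 783 genes of chromosome 1 and 0.28 over 350 genes of chromosome 18. Of the 711 genes of chromosome 1 tested in all 3 comparisons, 124 were called higher both in LLC with sh3 and with OE_DSTYKwt, which is 37.6% of the 330 higher in LLC and 48.6% of the 255 higher with OE_DSTYKwt, and 108 were called in opposite directions. Of all 711 genes, 35.9% were higher with OE_DSTYKwt and 46.4% in LLC, so both shares are near those of the chromosome as a whole. Of the 313 genes of chromosome 18, 75 were called lower in both, 45.2% of the 166 lower in LLC and 60.0% of the 125 lower with OE_DSTYKwt, and 43 were called in opposite directions. Of all 313, 39.9% were lower with OE_DSTYKwt, while 166 of the 313 were lower in LLC.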

How the data were processed

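RNA was sequenced in 18 libraries, 3 per group, with a stranded Illumina kit and reads of 75 bases, per the labels' protocols. The deposited estimated counts were produced by the authors at the level of transcripts with kallisto on mm10, per the submitters' processing notes, which also name sleuth; versions are not given there. Other deposited columns were not used. Of 118489 transcripts, 116816 matched GENCODE M21 (GRCm38), and the other 1673 held 0.515% to 0.593% of a library and entered neither library sizes nor tests. Counts were added up over the transcripts of a gene, rounded and scaled by TMM (edgeR 4.0.16, R 4.3.3); tables and figures were made in Python 3.11.15.

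Genes with 10 or more counts in at least 3 libraries of a comparison were tested with edgeR's quasi-likelihood test on its 6 libraries, with Benjamini-Hochberg adjustment over all genes. Standard errors were derived from the F statistic. Fits were run on simulated counts in which fewer genes changed than were called here, so this checks the code and not the results. Nothing in the labels says that the replicates are separate cultures, so the spread between them may be technical.

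Alternatives were DESeq2 1.42.0, other scalings and filters, the replicate number as a block, other ways to place or sum genes, and leaving out each library.

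Named genes are Dstyk; per chromosome and comparison the 5 largest rises and falls among calls whose libraries do not overlap, with curated symbols and an average log2 CPM of 3 or more; the 3 most abundant genes of the 3 windows with the largest absolute medians, called or not; and from each list the 2 calls lowest in adjusted p. Members and the 16 lists were chosen with earlier results of these data known. Some named genes and 1 list are not reported here. Other lists not described in the report are given as higher and lower of tested. In LLC, UN-SCC679 with sh3 and OE_DSTYKwt in turn, Slam and Fc gamma receptors had 4 and 0 of 9, 1 and 0 of 2, and 0 and 0 of 3. The serpin B cluster had 3 and 0 of 3, then 0 and 0 of 1. Of insulin-like growth factor binding proteins 1 was tested in UN-SCC679, higher with sh3. Growth factors and receptors of chromosome 18 had 1 and 1 of 4, 2 and 2 of 5, and 1 and 1 of 5. Transcription factors had 2 and 4 of 8, 3 and 1 of 7, and 2 and 1 of 8. Extracellular genes had 1 and 1 of 2, 2 and 0 of 3, and 0 and 1 of 1.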

Additional observations from a re-analysis of the deposited data

Results flagged for a closer look

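Chromosome 1 went in opposite directions in the 2 lines with sh3. Its median less that of the other chromosomes was 0.13 in LLC and -0.061 in UN-SCC679, and all 3 sh3 libraries of each line lay on that side of all their empty libraries. The difference between the lines was not tested. By the same criterion 7 of its windows stood out. The medians were 0.094 in LLC and -0.22 in UN-SCC679 for the window from 0 Mb, 0.078 and -0.13 from 50 Mb, 0.24 and -0.062 from 60 Mb, and 0.11 and -0.100 from 70 Mb. They were 0.16 and -0.15 from 100 Mb, 0.16 and -0.12 from 180 Mb, and 0.27 and -0.16 from 190 Mb. On chromosome 18 the window from 30 Mb had -0.21 in LLC and 0.084 in UN-SCC679. None of these differences was tested. With the summed CPM of a window in place of the median, 5 of these values changed sign: in LLC to -0.061 for the window from 50 Mb and -0.056 from 190 Mb of chromosome 1, and in UN-SCC679 to 0.49 from 70 Mb and 0.17 from 190 Mb of chromosome 1 and -0.056 from 30 Mb of chromosome 18. The last was also -0.0061 with a filter at a mean of 1 CPM. The windows from 0 and 100 Mb hold fewer than 20 genes in both lines.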

How the results depend on the processing

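The medians of chromosomes 1 and 18 against the other chromosomes kept their sign in LLC with sh3 and with OE_DSTYKwt under every alternative run. Left out 1 at a time, libraries gave for chromosome 1 0.12 to 0.14 in LLC, -0.073 to -0.054 in UN-SCC679 with sh3, 0.093 to 0.10 with OE_DSTYKwt and 0.042 to 0.058 between the empty groups, and for chromosome 18 -0.19 to -0.17, -0.059 to -0.026, -0.10 to -0.090 and -0.068 to -0.032. The range of windows above the other chromosomes was then 18 to 19, 2 to 6, 20 to 20 and 14 to 16 of 20 on chromosome 1, and 0 to 0, 2 to 4, 0 to 1 and 0 to 3 of 9 on chromosome 18. Genes of chromosome 1 called with OE_DSTYKwt ranged from 206 to 359 (169 to 310 higher, 37 to 49 lower), and those of chromosome 18 from 107 to 175 (14 to 22 higher, 91 to 154 lower). Over genes not called, an alternative chosen after seeing the data that selects genes near 0 by the change itself, the medians were 0.0096 and -0.042 in LLC, -0.0071 and 0.0032 in UN-SCC679 with sh3, 0.053 and -0.049 with OE_DSTYKwt and 0.0060 and -0.0062 between the empty groups, for chromosomes 1 and 18. Over genes of at least 10 CPM, also chosen then, they were -0.15 for chromosome 18 in LLC, 0.11 for chromosome 1 with OE_DSTYKwt, and 0.067 and -0.045 between the empty groups. A filter at a mean of 1 CPM gave 0.15 for chromosome 1 in LLC, and 0.060, -0.064 and 1 window above on chromosome 18 between the empty groups. No filter gave 0.085 for chromosome 1 and 1 window above on chromosome 18 with OE_DSTYKwt, 0.032 and -0.073 between the empty groups, and 5 windows above on chromosome 18 in UN-SCC679 with sh3. Protein-coding genes alone gave -0.071 and 2 windows above on chromosome 1 in UN-SCC679 with sh3, and -0.059 for chromosome 18 between the empty groups. Summed CPM gave 1 window above on chromosome 18 in UN-SCC679 with sh3. The causes of these differences were not tested. DESeq2 called 206 genes of chromosome 1 higher and 40 lower with OE_DSTYKwt. Scaling by library size alone moved no median of all genes by more than 0.1, but it turned the balance of calls in places. In UN-SCC679 with sh3, calls went from 221 higher and 313 lower to 266 and 264 on chromosome 1. On chromosome 18 they went from 98 and 132 to 120 and 112, and over all genes from 4544 and 4583 to 5344 and 3755. Between the empty groups they went from 126 and 143 to 139 and 133 on chromosome 18. Over all genes they went there from 4997 and 4691 to 5438 and 4331.

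Same-numbered libraries did not deviate together (correlations of deviations from -0.074 to 0.080), so the replicate numbers were not taken to pair the libraries. With the replicate number as a block, genes of chromosome 1 called were 580 in LLC, 519 in UN-SCC679 with sh3 and 286 with OE_DSTYKwt, against 583, 534 and 316 without it. Genes near the count minimum rest on few reads, and medians over few genes are imprecise.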
